A study of Mus musculus with 2 samples.

Results

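A set of 10 genes that mark microglia and other immune cells were examined in the open chromatin of the embryonic mouse retina. They are Spi1, Csf1r, Cx3cr1, P2ry12, Ptprc, Aif1, Tmem119, C1qa, C1qb and C1qc, 10 of the 21938 protein-coding genes of the annotation. They were chosen by name as known markers, with earlier results of these data known, and the rule that selects their peaks uses no measured value. The study mapped DNase I cleavage (DNase-seq, in which an enzyme cuts accessible DNA and the cut ends are sequenced) in whole retina of B6NCrl mouse embryos at 14.5 days of development. It has 1 group and 2 biological replicates, each of pooled male and female tissue. They carry separate biosample labels under the same donor label, so the spread between them need not be a spread between litters. Replicate 1 was also sequenced on an instrument model that replicate 2 was not. With 1 group and no treatment there is nothing to test between conditions, so each value is given for both libraries and set beside the same value over all genes.

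Microglia are the resident macrophages of the brain and retina. They descend from yolk sac progenitors, enter the neural retina during embryonic development, and depend on signalling through the receptor Csf1r and on the transcription factor PU.1, the product of Spi1. In the developing retina they clear dying cells. Microglia in general are also known for complement-dependent pruning of synapses. In bulk tissue such as this, few microglia and little accessibility per microglial cell cannot be told apart.

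Peaks are stretches of 150 bp that the submitters called as cleavage maxima in each library. A promoter peak of a gene overlaps the 1 kb on either side of any of its annotated transcription start sites (TSSs), and a distal peak overlaps no such window of any gene. Each peak carries a deposited score whose meaning is not stated, so it was turned into a percentile rank among all peaks of its library, with 100 the strongest. A hotspot is a broader region of raised cleavage with a deposited −log10 false discovery rate (FDR).

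The libraries held 165269 peaks in replicate 1 and 219308 in replicate 2, with median scores of 29.0 and 48.0. Hotspots covered 2.01% and 2.98% of the chromosomes. Scores were therefore not compared between libraries, and a peak found in replicate 2 alone was not read as a difference between samples. For the tissue, 10 genes of retinal progenitor cells, the dividing cells that make up much of the retina at this age, were looked at. All 10 had a promoter peak in both libraries, with median ranks of 98.5 and 99.3, and Pax6, Rax, Six3 and Lhx2 were among them. The share over all protein-coding genes was 68.8%. Genes of like promoter CpG content, a measure explained below, would give 9.18 of 10. The count therefore could not check the tissue label, and the ranks were not set beside those of all open promoters.

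The sequences below are those on which the description of the members turns. All were read from the mm10 assembly, peaks on the plus strand and promoters 5′ to 3′ in the direction of the gene. Capitals mark every match, on either strand, to the letters searched. These were GAGGAAGT (ETS factors of the PU.1 type), TGTGGTT (RUNX), GAAA, any 2 bases and again GAAA (interferon regulatory factors, IRF), TTGCNNAA (C/EBP), TGANTCA (AP-1), TAATTA (homeodomain factors), CAGCTG (an E-box), CC, any 3 bases and AGGGGGC (the core of the CTCF site), a shortened CTCF core that ends in AGNNGG instead and overlaps the longer version, and GTTNCC, any 2 bases and GGNAAC (the X-box of RFX factors). The last 2 were added after the sequences had been seen.
Spi1, strongest shared distal peak in an intron of the gene, chr2:91101516-91101665: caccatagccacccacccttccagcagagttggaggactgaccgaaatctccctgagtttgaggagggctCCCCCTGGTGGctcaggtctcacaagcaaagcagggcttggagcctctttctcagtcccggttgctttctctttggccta
Aif1, strongest shared distal peak, chr17:35178636-35178785: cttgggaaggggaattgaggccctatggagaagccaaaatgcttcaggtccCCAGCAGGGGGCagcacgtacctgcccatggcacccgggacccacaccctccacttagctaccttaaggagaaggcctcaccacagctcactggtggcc
Tmem119, strongest shared distal peak, chr5:113815876-113816025: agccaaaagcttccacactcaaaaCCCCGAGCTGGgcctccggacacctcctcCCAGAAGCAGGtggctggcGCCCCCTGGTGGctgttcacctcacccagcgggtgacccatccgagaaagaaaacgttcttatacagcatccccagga
P2ry12, strongest shared distal peak, chr3:59175376-59175525: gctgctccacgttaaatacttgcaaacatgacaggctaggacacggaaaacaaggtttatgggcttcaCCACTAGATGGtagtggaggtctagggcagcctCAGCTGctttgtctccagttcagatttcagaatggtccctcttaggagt
Cx3cr1, shared distal peak nearest upstream, chr9:120073276-120073425: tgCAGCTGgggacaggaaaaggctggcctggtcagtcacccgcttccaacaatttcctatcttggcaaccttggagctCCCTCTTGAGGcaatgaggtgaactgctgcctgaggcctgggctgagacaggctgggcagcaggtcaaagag
C1qa, strongest shared distal peak, chr4:136865216-136865365: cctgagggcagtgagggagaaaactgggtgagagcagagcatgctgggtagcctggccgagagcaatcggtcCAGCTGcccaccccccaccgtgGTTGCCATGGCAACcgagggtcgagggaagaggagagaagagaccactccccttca
C1qc, shared distal peak nearest to the gene, chr4:136894096-136894245: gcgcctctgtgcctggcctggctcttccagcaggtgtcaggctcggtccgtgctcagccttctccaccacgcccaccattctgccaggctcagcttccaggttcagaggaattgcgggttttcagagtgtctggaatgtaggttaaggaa
Ptprc, shared distal peak with the PU.1 letters, chr1:138206296-138206445: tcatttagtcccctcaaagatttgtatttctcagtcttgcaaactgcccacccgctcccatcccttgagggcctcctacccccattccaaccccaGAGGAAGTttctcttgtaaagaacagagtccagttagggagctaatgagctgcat
Aif1, shared distal peak with the PU.1 and IRF letters, chr17:35186296-35186445: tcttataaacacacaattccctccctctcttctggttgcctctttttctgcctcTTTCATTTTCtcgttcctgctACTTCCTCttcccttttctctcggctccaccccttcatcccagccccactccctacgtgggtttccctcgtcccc
Aif1, shared distal peak with the RUNX letters, chr17:35186056-35186205: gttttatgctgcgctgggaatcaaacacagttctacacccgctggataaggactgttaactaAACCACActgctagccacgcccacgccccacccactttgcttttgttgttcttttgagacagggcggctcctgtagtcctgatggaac
C1qc, the 250 bases before a RefSeq start, chr4:136892915-136893164: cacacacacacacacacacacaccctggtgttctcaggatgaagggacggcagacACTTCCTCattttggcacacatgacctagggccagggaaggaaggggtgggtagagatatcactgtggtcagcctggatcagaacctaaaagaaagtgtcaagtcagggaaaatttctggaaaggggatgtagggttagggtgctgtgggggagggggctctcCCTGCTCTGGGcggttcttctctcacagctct
Aif1, the 250 bases before the RefSeq start, chr17:35176053-35176302: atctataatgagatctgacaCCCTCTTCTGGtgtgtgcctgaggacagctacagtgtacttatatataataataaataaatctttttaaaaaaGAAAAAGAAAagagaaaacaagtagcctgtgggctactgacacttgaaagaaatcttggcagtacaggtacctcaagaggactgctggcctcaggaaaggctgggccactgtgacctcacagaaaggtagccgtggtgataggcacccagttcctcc
P2ry12, the 250 bases before the RefSeq start, chr3:59262986-59263235: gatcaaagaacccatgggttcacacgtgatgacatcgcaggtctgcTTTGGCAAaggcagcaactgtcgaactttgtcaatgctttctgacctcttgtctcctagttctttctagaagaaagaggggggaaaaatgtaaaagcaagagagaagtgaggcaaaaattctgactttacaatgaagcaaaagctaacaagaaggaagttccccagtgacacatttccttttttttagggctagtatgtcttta

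Few members had an accessible promoter. A promoter peak was present in both libraries at 2 of 10 members, Tmem119 and P2ry12, against 68.8% of all protein-coding genes. Replicate 1 had promoter peaks at 3 members (69.7% of all genes) and replicate 2 at 3 (71.3% of all genes). Csf1r had them in replicate 1 alone and C1qa in replicate 2 alone. Cx3cr1, Ptprc, Aif1, Spi1, C1qb and C1qc had none in either library.

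Much of this shortfall went with the base composition of the promoters. Genes were sorted into deciles by the observed over expected frequency of CpG dinucleotides within 500 bp of the 5′ end, and promoters poor in CpG are known to be open in fewer cell types. The share of genes with a promoter peak in both libraries was 8.84% in the lowest decile, 83.7% in the fifth, 94.3% in the sixth and 99.2% in the highest. All members lay in the second to the fourth decile. CpG content was read at the 5′ end of the gene alone, whereas a promoter peak was counted at any TSS, for members and for all lists. At Spi1 and Csf1r the 5′ end lies 13.7 and 4.97 kb before the start of the transcript that the annotation numbers first. Their deciles therefore do not describe the sequence at that start. C1qc, Aif1 and Spi1 were in a decile where 19.1% of genes had such a peak, Csf1r, Cx3cr1 and Ptprc in one with 32.6%, and Tmem119, P2ry12, C1qa and C1qb in one with 54.3%. Summed over the 10 members, these shares come to 3.72 genes, beside the 2 observed. The count was thus low against all genes and much nearer to that of genes with the same CpG content.

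**Figure D1:**
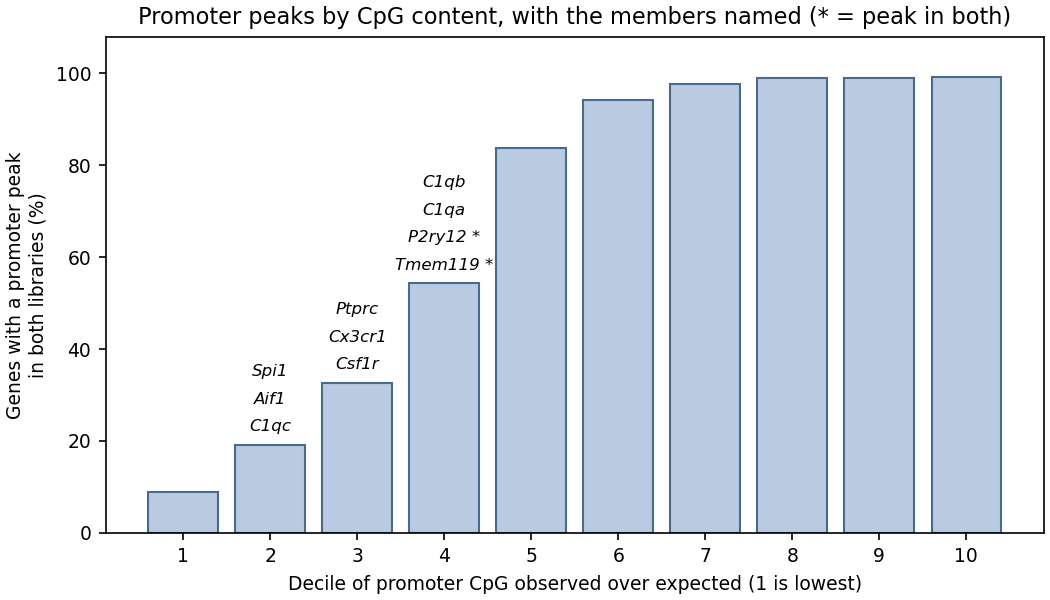
Bars give the percentage of protein-coding genes with a promoter peak in both libraries (y axis) in each decile of promoter CpG observed over expected (x axis, 1 lowest). The members are named above the bar of their decile, an asterisk marks Tmem119 and P2ry12, and no member lies above the fourth decile.

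Spi1 encodes PU.1, the ETS factor that directs myeloid and microglial gene expression. It had no promoter peak and no promoter hotspot in either library, around any of its 4 annotated TSSs. Its strongest shared distal peak scored 110.0 in replicate 1 and 123 in replicate 2, at ranks of 95.6 and 95.4. It lay in an exon near the 3′ end of the gene, 2913 bp from the TSS of the neighbouring gene Mybpc3. A further peak in an intron of Spi1, shown above, scored 94.0 and 115, at ranks of 92.3 and 93.4, and holds a match to the shortened CTCF core. Both peaks recurred in the 2 libraries at the same positions and at nearly equal ranks.

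The known upstream enhancer of Spi1, which holds PU.1 binding sites and lies 12 to 16 kb before the usual start, was looked for from both candidate starts. GENCODE places the 5′ end of the gene 13.7 kb before the start of the transcript that it numbers first, and the window counted from that transcript was added after the annotation had been seen. From that transcript (chr2:91080096-91084095) there were 0 peaks and 0 hotspots in both libraries. From the 5′ end (chr2:91066390-91070389) there were 3 peaks in replicate 1 and 2 in replicate 2. All of these were promoter peaks of Slc39a13, a zinc transporter gene, so neither window held a distal peak. A shared distal peak lay between the windows, 3.62 kb before the 5′ end in replicate 1 (rank 72.4) and 3.68 kb in replicate 2 (rank 77.2).

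Csf1r, on chromosome 18, encodes the receptor for the cytokines Csf1 and Il34 on which microglia depend. In replicate 1 its promoter peaks scored 19.0 (rank 23.2) and 25 (rank 40.7). The replicate 2 counterpart of the second peak scored 56.0 (rank 59.8) and was centred 1092 bp from the nearest TSS, just beyond the 1 kb limit. The replicate 1 peak was centred at 1012 bp and was counted because its edge reached the window. The weaker replicate 1 peak, centred 72 bp from a TSS, had no counterpart in replicate 2. These peaks lie in or beside the second intron of the first-numbered transcript (chr18:61105999-61109615), where the intronic enhancer of Csf1r is known to be. That intron held 2 peaks in replicate 1 and 1 in replicate 2, of low to middle rank. A hotspot overlapped the promoter windows in both libraries, at a highest −log10 FDR of 3.50 in replicate 1 and 100, the deposited ceiling, in replicate 2.

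Other peaks around Csf1r mostly belonged to its neighbours. Its window, which adds 50 kb to both ends of the gene body, held 7 distal peaks in replicate 1 and 11 in replicate 2, of which 6 and 8 lay inside Pdgfrb, the gene of a platelet-derived growth factor receptor found on pericytes. The strongest shared one lay in an intron of Pdgfrb 32 kb upstream of Csf1r, at ranks of 91.8 and 91.1. The promoter of Hmgxb3, on the other side, ranked 96.1 and 96.4.

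Cx3cr1 encodes the receptor for the neuronal chemokine Cx3cl1. No peak or hotspot overlapped its promoter windows in either library. The nearest peak lay upstream of the 5′ end, 3.47 kb away in replicate 1 (score 89.0, rank 91.1) and 3.45 kb away in replicate 2 (score 99.0, rank 87.4). That peak, shown above, holds an E-box and a match to the shortened CTCF core. The window held 31 and 25 distal peaks, over a GENCODE model of the gene that is 168 kb long and runs across several other genes. The strongest, at ranks of 97.3 and 97.8, lay 58.6 kb downstream of the 5′ end in an exon of the non-coding gene Gm49427. Wdr48, Gorasp1, Ttc21a, Csrnp1 and Slc25a38, which the window touches, had promoter peaks in both libraries at ranks from 93.4 to 97.3, whereas the chemokine receptor gene Ccr8 and the muscle gene Xirp1 had none.

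P2ry12 encodes a purine receptor that guides microglial processes toward ATP and ADP. Its promoter peaks were among the weakest of either library, with a score of 13 (rank 8.47) in replicate 1 and 31.0 (rank 18.9) in replicate 2. The 2 peaks did not overlap each other, although both lay within 200 bp of the 5′ end. The overlapping hotspots had a −log10 FDR of 2.26 and 4.77, where the lowest value deposited is 1.3. P2ry12 thus counted as open in both libraries on peaks near the bottom of each list.

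The window of P2ry12 was sparse, with 7 peaks in replicate 1 and 6 in replicate 2, or 4.77 and 4.09 per 100 kb. P2ry12 lies within Med12l, a Mediator subunit gene whose promoter ranked 94.2 and 95.4. The replicate 2 promoter peak of P2ry12 overlapped an exon of both genes. The strongest shared distal peak of the P2ry12 window, in an intron of Med12l, scored 56.0 and 101, at ranks of 76.9 and 88.3. The related receptor gene P2ry13 had no promoter peak, but a shared peak in an exon of P2ry13 ranked 73.8 and 82.6.

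Tmem119 encodes a membrane protein used to tell microglia from other macrophages, and it is also known from bone-forming cells. It was the only member with a strong promoter peak. The peak scored 66.0 in replicate 1 (rank 82.2) and 104 in replicate 2 (rank 89.6), overlapped between libraries, and was centred 15 and 5 bp from a TSS. Its hotspot reached the ceiling of 100 in both. Upstream, the strongest shared distal peak ranked 87.4 and 92.2, lay 15.4 kb from Tmem119 and 3306 bp from the TSS of Selplg, and matches the CTCF core. Selplg, the gene of the leukocyte adhesion ligand PSGL-1, had promoter peaks in replicate 2 alone, the strongest at rank 10.8. The peaks at Iscu and Sart3, 2 widely expressed neighbours, ranked up to 99.8 and 98.7, above Tmem119 itself.

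Ptprc encodes CD45, the surface phosphatase of nearly all blood-derived cells. None of its 12 TSSs had a promoter peak or hotspot in either library. All peaks in its window were distal, 10 in replicate 1 and 20 in replicate 2, and all 10 of replicate 1 were overlapped in replicate 2. The strongest shared peak lay in an intron, with scores of 74.0 and 106 and ranks of 85.8 and 90.4. No other protein-coding gene overlaps the window, so here no neighbouring promoter supplied peaks. The density was 4.70 and 9.40 peaks per 100 kb, below the median of all genes in both libraries when promoter peaks are included. For distal peaks alone the median of all genes was 4.73 and 6.38, so Ptprc was close to it in replicate 1 and above it in replicate 2.

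Aif1 encodes Iba1, the calcium-binding protein used to stain microglia. It had no promoter peak and no promoter hotspot. The nearest peak, shown above with its CTCF core, lay 2.64 kb upstream in replicate 1 (score 71.0, rank 84.5) and 2.66 kb upstream in replicate 2 (score 102, rank 88.7). The gene sits in the class III region of the major histocompatibility complex between widely expressed and immune genes. Csnk2b, Gpank1, Bag6, Prrc2a and Nfkbil1 had promoter peaks at ranks from 97.3 to 99.6. Lst1, Ltb, Tnf and Lta, all genes of leukocytes or their cytokines, had none, and nor did Apom, an apolipoprotein gene. D17H6S53E ranked 87.8 in both libraries, and Gm16181 had a promoter peak at rank 23.2 in replicate 1 alone. A shared peak in an exon of Ltb ranked 90.8 and 92.8, and was counted to the promoter window of the microRNA gene Mir6973a.

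A group of 3 shared distal peaks lay 10.1 to 10.7 kb upstream of Aif1 in an intron of Lst1, a leukocyte gene. They ranked 76.9, 56.5 and 47.7 in replicate 1, and 79.9, 68.7 and 55.4 in replicate 2. The replicate 1 sequence of the middle peak holds the PU.1 and IRF letters, and the outer peaks hold the RUNX letters. In replicate 2 the middle peak was placed slightly further along and kept the PU.1 match but not the IRF match. The other distal peak with the PU.1 letters lay 30.7 kb upstream of Ptprc, at ranks of 66.9 and 69.4. These peaks were singled out after their sequences had been seen.

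C1qa, C1qb and C1qc encode the chains of C1q, the complement component that binds targets such as synapses marked for removal, and they lie side by side on chromosome 4. C1qb had no promoter peak or hotspot in either library. C1qa had a single promoter peak in replicate 2, 548 bp from the TSS, with a score of 47.0 and a rank of 48.9. C1qc had no promoter peak, but a shared peak stood just outside the limit. It was centred 1106 bp from the nearest TSS in replicate 1 (score 72.0, rank 84.9) and 1086 bp in replicate 2 (score 105, rank 90). The hotspot around that peak reached the promoter window, so C1qc counted among the 4 members with a promoter hotspot in both libraries, with Csf1r, P2ry12 and Tmem119. The same held for 69.1% of all genes.

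The C1q genes stood in a stretch dense in distal peaks. The window of C1qb held 17 distal peaks in replicate 1 and 26 in replicate 2, of which 16 in each were shared. Total density was 20.7 and 30.2 peaks per 100 kb, at the 88.1 and 95.6 percentile of all genes, and the overlapping windows of C1qa and C1qc gave 16.5 in replicate 1 and 27.2 and 27.1 in replicate 2. The strongest shared peak apart from those nearest Ephb2 ranked 93.2 and 96.4, lay 20.9 kb downstream of the 5′ end of C1qb, and matches an E-box and the RFX X-box. Ephb2, the gene of an ephrin receptor known in retinal axon guidance, lies downstream of C1qb, and its promoter peaks ranked up to 95.6 and 95.7. Epha8, another ephrin receptor gene, lies on the other side, with a promoter peak in replicate 1 alone.

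**Figure D2:**
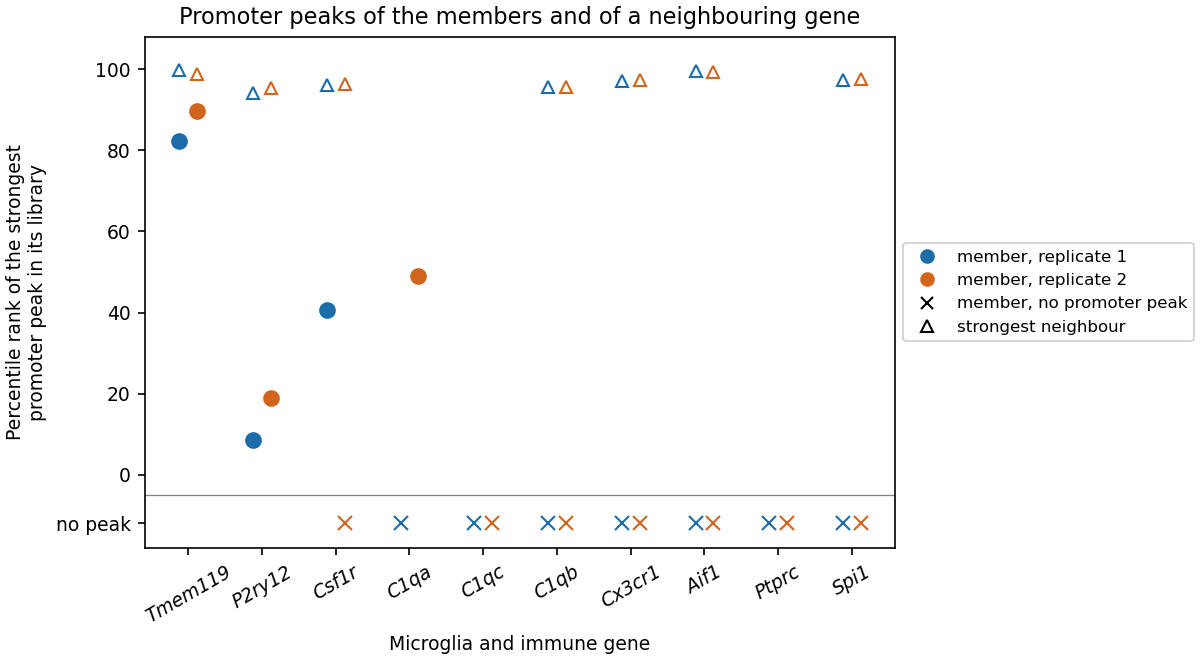
Percentile rank of the strongest promoter peak (y axis, 100 strongest) for each member (x axis) as filled circles, for replicate 1 in blue and replicate 2 in orange, with crosses where there was no peak. Triangles give the coding gene overlapping the same window with the best-ranked promoter in both libraries, at ranks from 94.2 to 99.8; Tmem119 comes nearest to its neighbour.

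Of the 35 other protein-coding genes that overlap the windows, 21 had a promoter peak in both libraries (60%, beside 68.8% of all protein-coding genes), 5 in 1 library and 9 in neither. Among the 21 the median rank was 97.1 in replicate 1 and 97.3 in replicate 2. Of the promoter peaks inside the windows, 4 in replicate 1 and 3 in replicate 2 belonged to a member, and 42 and 51 to other genes.

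**Figure D3:**
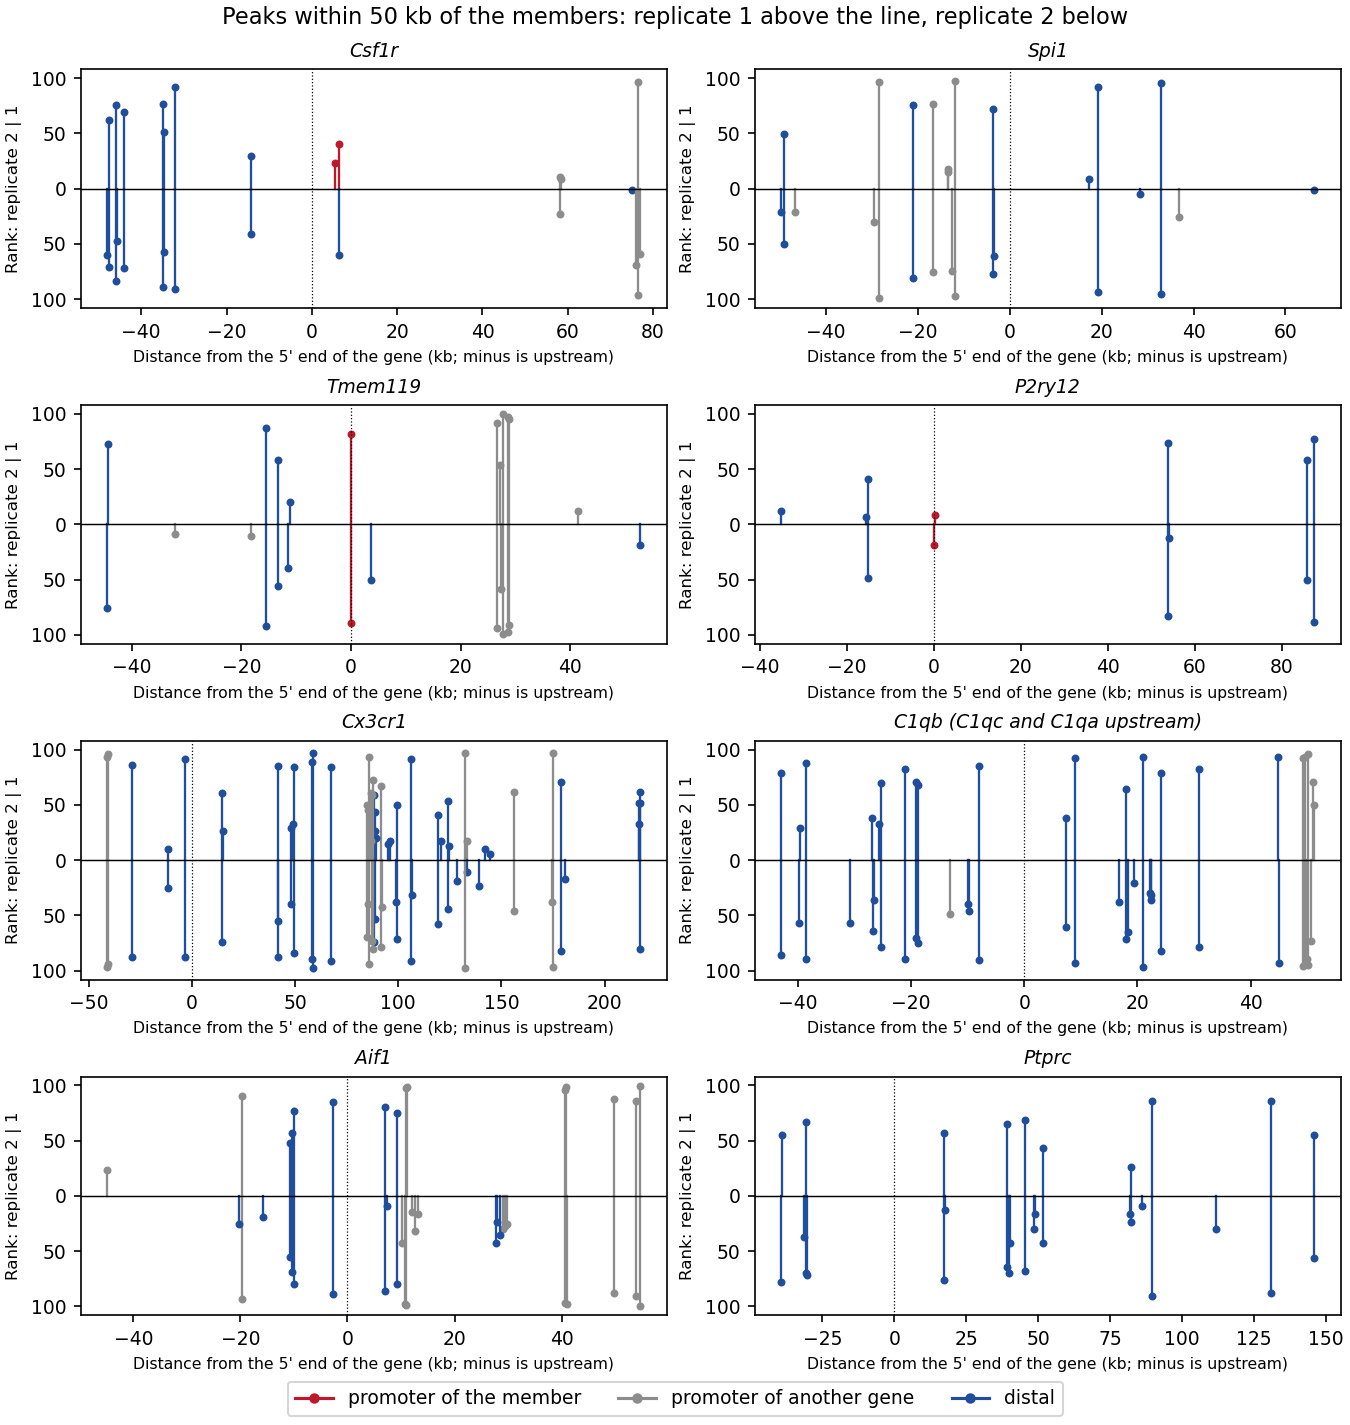
Each panel shows the peaks within 50 kb of a member by distance from its 5′ end in kb (x axis, minus is upstream), with the height giving the percentile rank, replicate 1 above the line and replicate 2 below. Own promoter peaks (red) appear at Csf1r, Tmem119 and P2ry12, promoter peaks of other genes are grey, and distal peaks (blue) mostly recur at the same place in both libraries; C1qa and C1qc lie within the C1qb panel, where the C1qa promoter peak is grey.

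Accessible sites around the members were not scarce. The 10 windows merge into 8 stretches of 1223 kb, which held 134 peaks in replicate 1 and 170 in replicate 2. Of these, 88 and 116 were distal (mean 102 ± 19.8, SD, n = 2). Distal peaks thus came to 7.19 and 9.48 per 100 kb, beside 4.39 and 6.10 over the chromosomes as a whole. Taken window by window, the members' median distal density was 5.52 and 9.36, beside 4.73 and 6.38 over the same windows of all protein-coding genes. Over the windows of all protein-coding genes the median total density was 9.18 and 11.7 peaks per 100 kb, and the members had medians of 12.3 and 13.6. The middle 50% of all genes ran from 4.68 to 14.9 in replicate 1 and from 6.48 to 17.8 in replicate 2. In replicate 1, 6 members exceeded the median of all genes and 4 did not, and in replicate 2 the split was 7 and 3. P2ry12, Ptprc and, by a narrow margin, Csf1r were below it in both libraries, and the C1q genes, Cx3cr1, Aif1 and Tmem119 above it in both. The windows of C1qa, C1qb and C1qc largely coincide, so the members' medians and these splits count the same dense stretch once for each of those genes. The medians were not computed with that stretch counted a single time, which would bring them nearer to those of all genes.

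**Figure D4:**
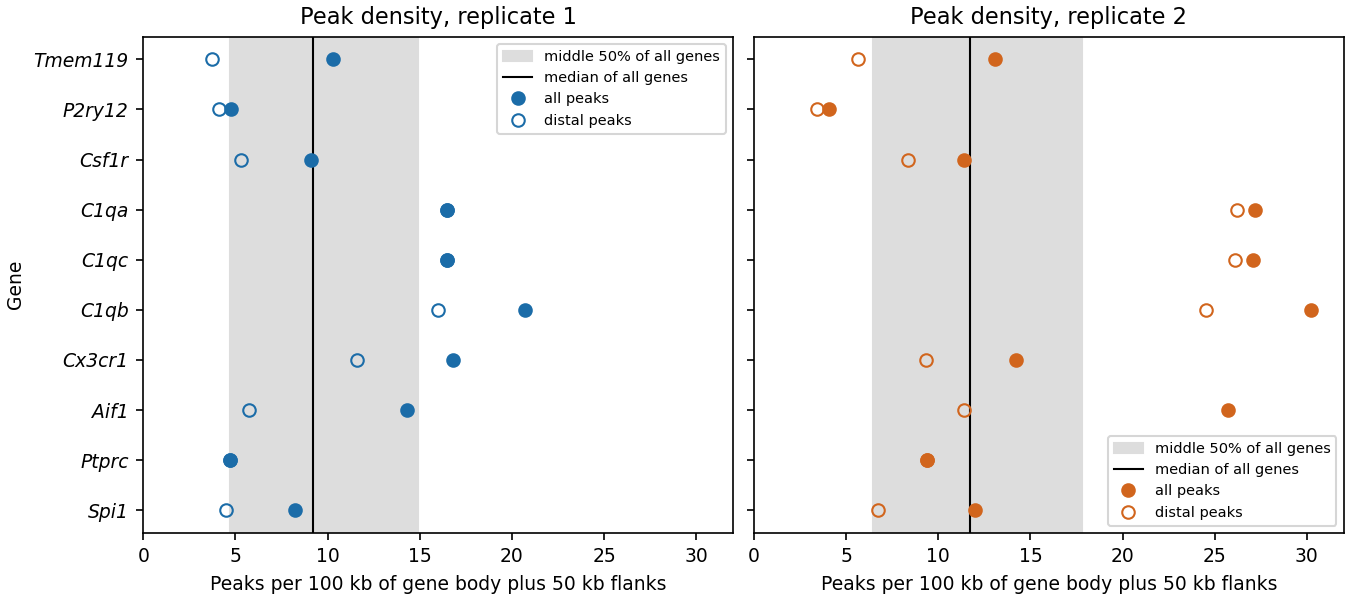
Peaks per 100 kb of gene body plus 50 kb flanks (x axis) for each member (y axis), all peaks as filled and distal peaks as open circles, which coincide at Ptprc and, in replicate 1, at C1qa and C1qc. The grey band spans the middle 50% of all protein-coding genes and the line their median, 9.18 in replicate 1 and 11.7 in replicate 2; the C1q genes lie above the band in both panels.

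Distal peaks in the windows ranked higher than distal peaks elsewhere, with medians of 62.3 and 60.8 beside 43.2 and 44.4 over all distal peaks. In the strongest decile of peaks were 9 (10.2%) of those in replicate 1 and 11 (9.48%) of those in replicate 2, beside 3.33% and 4.55% of all distal peaks. Of the 88 in replicate 1, 71 (80.7%) recurred in replicate 2, and of the 116 in replicate 2, 73 (62.9%) recurred in replicate 1. Over all distal peaks these shares were 71.2% and 49.9%. Over all distal peaks weighted to the same deciles of rank they were 83.0% and 64.5%. At equal rank, then, the recurrence of the members' distal peaks was close to that of distal peaks in general. Only 36 and 55 of them were nearer to a TSS of a member than to that of any other coding gene. All distal peaks, here and for the letters searched below, include those far from any gene. Ranks and letters were not compared with distal peaks in the windows of all genes, so a difference that goes with lying near genes was not tested.

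The letters of myeloid factors were searched for in the distal peaks. The PU.1 letters were in 2 peaks of each library (2.27% and 1.72%, beside 0.969% and 0.940% of all distal peaks). The RUNX letters were in 7 and 5 (7.95% and 4.31%, beside 3.20% and 3.21%), and the IRF letters in 1 and 0 (beside 1.47% and 1.43%). The C/EBP letters were in 1.14% and 4.31%, below the 6.22% and 6.11% of all distal peaks, and the AP-1 letters in 3.41% and 1.72%, below 4.88% and 5.26%. These counts are too small to set the windows apart from other distal peaks.

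Letters of the CTCF core, bound by the factor that shapes chromatin loops in most cell types, were in 6 distal peaks of each library (6.82% and 5.17%, beside 2.55% and 2.12% of all). Among distal peaks that fall in the strongest decile of all peaks of their library, the share was 9.88% and 6.29%. Those strong distal peaks were 3.33% and 4.55% of all distal peaks. The shortened core was in 38.6% and 34.5% of the members' distal peaks, beside 21.7% and 19.5% of all and 47.0% and 39.2% of the strong ones. Homeodomain letters, a class to which many retinal transcription factors belong, were in 2.27% and 2.59%, beside 5.77% and 7.17% of all. E-boxes were at 15.9% and 17.2%, near the 14.7% and 15.2% of all distal peaks.

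RefSeq promoter sequences were matched for 6 of 10 members, Ptprc, P2ry12, C1qb, C1qc, Cx3cr1 and Aif1. The 250 bases before the start held the PU.1 letters at C1qc (195 bases before the start), which 2.44% of all 32851 RefSeq promoters also hold. The IRF letters were found at Aif1 (2.98% of all), the C/EBP letters at P2ry12 (9.56%), the homeodomain letters at 1 of the 2 starts of Ptprc (4.84%) and the E-box at Cx3cr1 (13%). The shortened CTCF core was found at C1qc and Aif1 (20.2% of all). No RUNX, AP-1 or longer CTCF core letters were found in these windows, which says nothing about the factors themselves. Among the promoters with a myeloid match, those of C1qc and Aif1 had no peak within 1 kb and that of P2ry12 had a weak one.

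Other genes of the macrophage programme were also open in a minority of cases. Of 26 further myeloid genes, 10 had a promoter peak in both libraries, beside 13.6 from the CpG deciles of their promoters, and 14 had none in either. Strong peaks stood at the transcription factor genes Cebpa (ranks 97.5 and 96.8), Irf8 (93.4 and 94.7) and Runx1 (92.8 and 96.6), and at Olfml3 (92.1 and 95.0). Cebpa and Irf8 lie in the upper 3 deciles of CpG content. Sall1, a factor that maintains microglial identity and is also known from neural and kidney progenitors, ranked 84.1 and 85.1, and the lymphoid and myeloid factor gene Ikzf1 80.1 and 71.5. The endotoxin co-receptor Cd14 (66.9 and 74.8) and the lysosomal glycoprotein Cd68 (59.3 and 57.7) were of middle rank.

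Adgre1 (the antigen F4/80), Cd33 and Ctss had none in either library, and nor did Itgam, Trem2, its adaptor Tyrobp, and Fcer1g.

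Markers of other blood-derived cells gave similarly low counts. Of 5 genes of border-associated macrophages, those of the meninges and vessels, 1 had a promoter peak in both libraries (Cd163, ranks 45.5 and 56.5), beside 2.01 from their CpG deciles. Of 8 lymphocyte genes, 1 did (Cd8a, ranks 35.2 and 47.5), beside 3.42. The endothelial list, which marks the vessel cells through which blood-derived cells would pass, had 5 of 10, beside 6.33, among them Kdr (95.9 and 98.0), Egfl7 (90.2 and 89.6) and Esam (88.5 and 93.4), while Cdh5, Emcn and Pecam1 had none.

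Most partners of the members had a promoter peak. These are ligands and complement proteins that neurons, glia and other non-immune cells can supply. Of 11, 9 had a promoter peak in both libraries, beside 5.94 from their CpG deciles. Cx3cl1, the ligand of Cx3cr1, ranked 89.2 and 87.8, and Csf1, a ligand of Csf1r, 86.2 and 92.2. Il34, the other ligand of Csf1r, had no promoter peak in either library. Among genes that restrain phagocytes, Cd47 ranked 96.7 and 96.1 and Cd200 75.1 and 82.1. Tgfb1, a cytokine needed for microglial identity, ranked 78.0 and 81.6.

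In the complement pathway, where C1qa, C1qb and C1qc had no promoter peak common to both libraries, most partners of C1q had one. The proteases that complete the C1 complex, C1ra (76.3 and 80.5) and C1s1 (66.9 and 69.4), had promoter peaks in both libraries, as had their inhibitor Serping1 (92.3 and 96.1) and C3 (82.7 and 78.9), the component cleaved downstream. C4b, the component cleaved by C1s, had none in either. C3 and C1s1 have promoters in the lowest and the second decile of CpG content, where 8.84% and 19.1% of genes had a promoter peak in both libraries. The lists differ in size and makeup, and their difference was not tested.

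**Figure D5:**
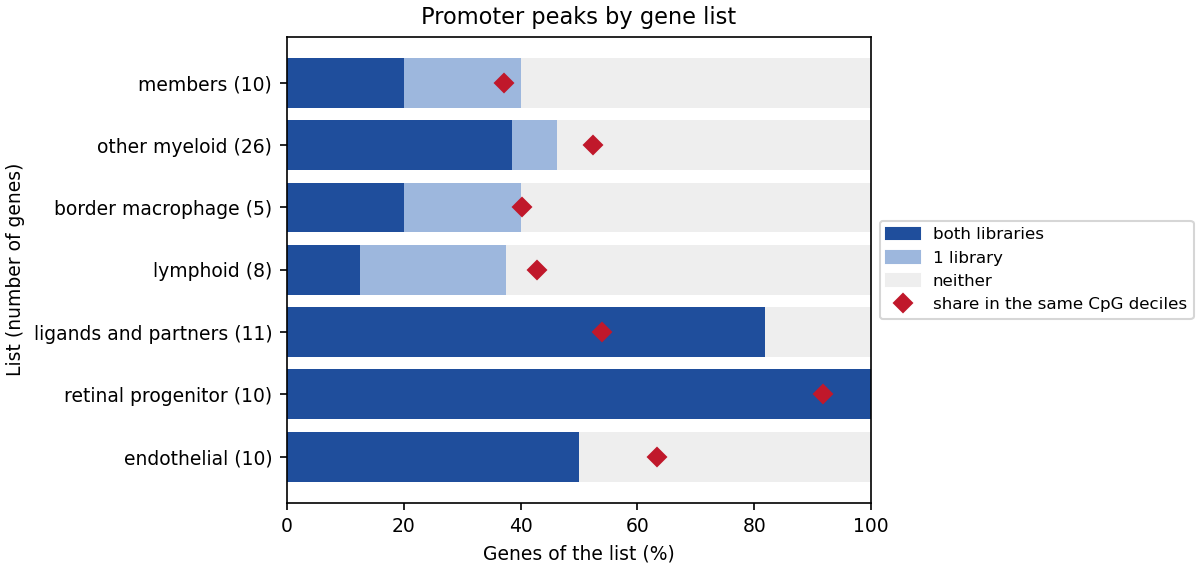
For each list (y axis, with its number of genes), the percentage of genes (x axis) with a promoter peak in both libraries (dark blue), in 1 library (light blue) and in neither (grey). Red diamonds give the percentage of all genes in the same CpG deciles with a peak in both. The members (2 of 10) lie below theirs, as do the other myeloid, border macrophage, lymphoid and endothelial lists. The ligands and partners (9 of 11) lie above, and the retinal progenitor genes (10 of 10, beside 9.18) slightly above.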

How the data were processed

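DNase-seq was done on 2 libraries of embryonic retina, taken as 1 group. The authors deposited for each library a peak list, in which each peak of 150 bp carries a score of unstated meaning, and a hotspot list with a −log10 FDR for each region, both on mm10 per the labels. The sources used here do not name the aligner or the caller. No read numbers were used, so depth is unknown and no detection limit or interval is given.

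Duplicate lines (34 and 56) were dropped. Peaks on the 21 chromosomes were joined to GENCODE M21 wherever they shared 1 bp or more, using Python 3.11.15, pandas 2.3.3 and pysam 0.24.0. Overlap counting and motif matching were tested on simulated data. Ranks are percentiles within a library. Promoter sequences are from RefSeq on GRCm38.p6.

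The text names all members, each list's genes with a promoter peak in both libraries or the first without, and each window's strongest neighbour and shared distal peak. The members, lists and rules were chosen with earlier results of these data known. Genes, motifs and peaks said to be added were chosen later, as were Itgam, Trem2, Tyrobp, Fcer1g and further neighbours. Values of some listed or neighbouring genes are not reported here.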

Additional observations from a re-analysis of the deposited data

How the results depend on the processing

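Of 47 alternative values, 12 moved by more than the limit set for their kind, which was 1.5 times for counts, the mean count of distal peaks included, and the SD between libraries (0.954 peaks per 100 kb) for the density. Members with a promoter peak in both libraries numbered 4 with a 2 kb window and 1 with peaks above the median score alone. Mean distal peaks were 65.5 above the median score, 50.5 with a 10 kb flank and 184 with a 100 kb flank. The members' median density, on the mean of the libraries, was 13.6 per 100 kb, and it was 9.11, 10.1 and 15.7 under those settings and 11.5 with RefSeq gene bodies, an alternative added after seeing the data. Members with a promoter hotspot fell to 2 with a 500 bp window and to 2 with RefSeq starts, also added later. Leaving out each library in turn gave 3 members with a promoter peak each time, 88.0 to 116 distal peaks, densities of 12.3 to 13.6, 4 to 5 promoter hotspots and 10 to 12 other myeloid genes. No paired analysis was possible because the series has 1 group. Depth is unknown, so a missing peak shows only that none was called.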
